A study of Papio anubis with 8 samples.

Results

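Transcripts of microglia, of the complement system and of the macrophages at the borders of the brain were followed in hippocampus from fetuses of the olive baboon (Papio anubis). A list of 39 genes was drawn up by symbol, and 38 of them had a row among the 37053 genes of the deposited table. AIF1 had no row under its symbol and is not analysed here. All 38 passed the filter on low counts, as did 16874 genes in all. Total RNA was sequenced from 8 libraries, named AMB3 to AMB10, taken at 0.9 of gestation and prepared from 25 ng each. The series concerns mothers that differed in adiposity and in leptin, the hormone secreted by fat tissue. The labels give no maternal group, treatment or fetal sex for any library, so each one was kept as a single unassigned sample and no groups were compared. Nothing in the labels says that every library came from a different fetus, so the spread between them may be partly technical.

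Microglia are the resident macrophages of the brain parenchyma. They descend from early embryonic macrophages, depend on the receptor CSF1R for survival, and in the developing hippocampus they engulf dying cells and synaptic material. The complement protein C1q starts the classical cascade, which leads to cleavage of C3, and fragments of C3 on a surface are read by a receptor on microglia. Border macrophages occupy the meninges, the choroid plexus and the perivascular spaces, and they are told from microglia by genes such as MRC1 and LYVE1.

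Total counts lay between 40404878 in AMB9 and 71648654 in AMB10. The unit of level is CPM, counts per 1000000 of the scaled library, and intervals are exact 95% Poisson intervals, which cover counting error only. Hippocampal and other neuronal genes were present in every library, but AMB8 and AMB10 stood apart. FIBCD1, a gene of CA1 pyramidal neurons, was at 399 CPM in AMB8 and 366 CPM in AMB10, against 9.0 to 83.9 CPM in the other libraries. GAD1, the GABA-synthesising enzyme of inhibitory neurons, was lowest in AMB8 with 129 CPM and reached 311 CPM in AMB5. Of 12 lymphocyte genes, 7 (CD3D, CD3G, CD2, MS4A1, CD79A, NKG7 and KLRD1) had under 10 counts in every library, and the list summed to 3.41 to 6.81 CPM. Of 13 genes of blood monocytes and neutrophils, S100A8, S100A12 and PADI4 had under 10 counts in every library. That list summed to 42.6 to 106 CPM, most of it from VCAN (37.4 to 102 CPM), which neural cells also express.

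The level of the 38 genes as a whole was lowest in AMB8 and highest in AMB6. In each library the median over the genes of log2 CPM minus the gene's own median was taken as a score. It was 0.10 in AMB3, 0.05 in AMB4, -0.16 in AMB5, 0.29 in AMB6, 0.04 in AMB7, -0.34 in AMB8, -0.21 in AMB9 and 0.10 in AMB10. AMB8, AMB9 and AMB5 thus lay below 0 and the other libraries above it. The score spanned 0.64 on the log2 scale over the 8 libraries, 0.50 without AMB8 and 0.45 without AMB6. These transcripts made up 0.0324% of the counts in AMB8 and 0.0516% in AMB6. In bulk RNA, fewer cells of a type and less RNA per cell cannot be told apart.

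**Figure D1:**
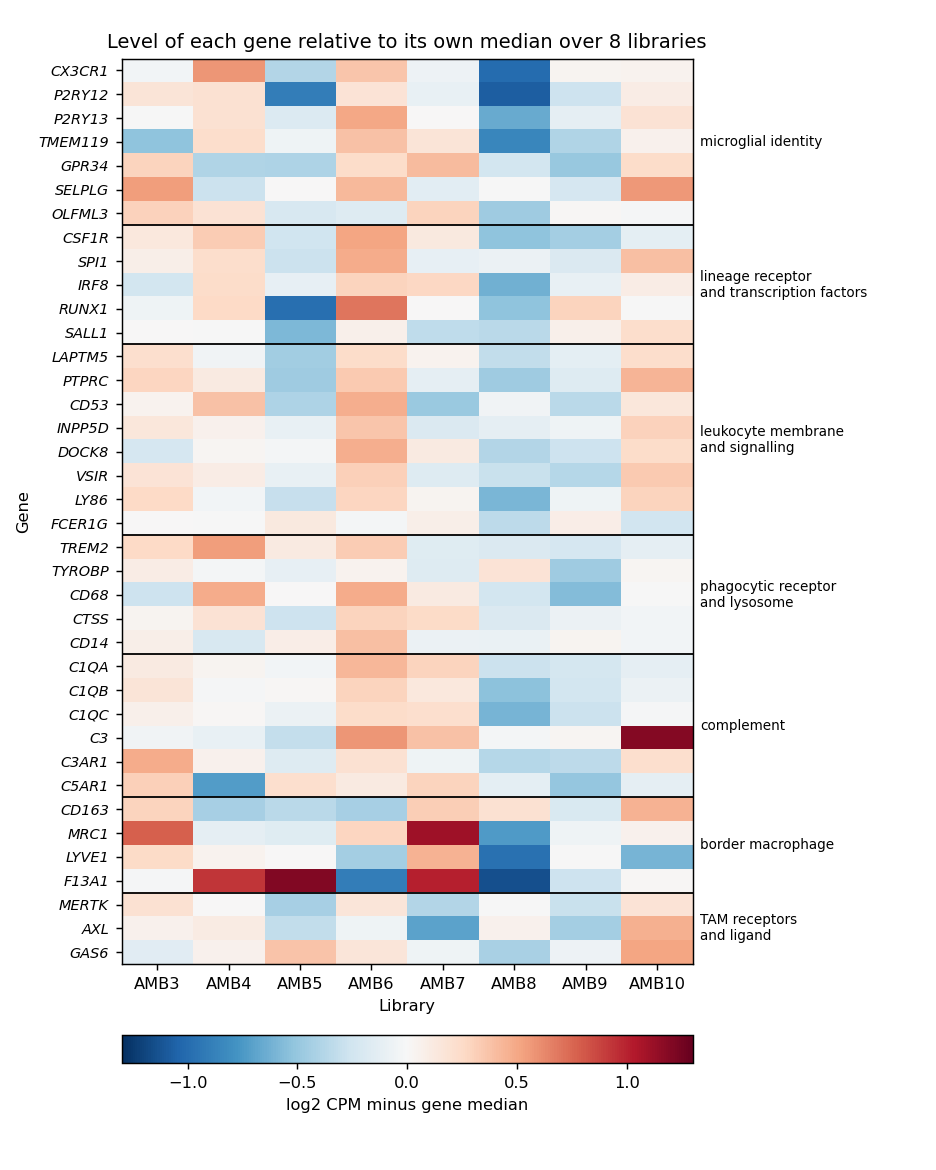
Log2 CPM minus the gene's own median over the 8 libraries, for each of 38 genes (rows, in 7 groups by role) in each library (columns), in blue below and red above the median. The AMB8 column is mostly blue, with 3 genes above their own median, and the AMB6 column is mostly red.

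Counts of genes rest on the same 38 genes and the same values as the score, so they restate it and are not separate support. The choice of AMB8 and AMB6 for these counts was made after their values were seen. AMB8 held the lowest level of 19 of the 38 genes, where 12.3% of all tested genes were lowest in AMB8. The interval of AMB8 lay below those of all other libraries for 7 of the 38 (CX3CR1, P2RY13, OLFML3, C1QB, C1QC, LYVE1 and GAS6), against 4.80% of all tested genes. Above their own median in AMB8 were 3 of the 38 (TYROBP, CD163 and AXL), against 52.5% of all tested genes. AMB6 held the highest level of 15 of the 38, against 12.1% of all tested genes. AMB8 was also the library with the lowest score of 10 meningeal and fibroblast genes (-1.11) and the highest score of 7 hippocampal neuron genes (0.53). Their part in the low levels of AMB8 was not tested.

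Spread was summarised for each gene by its log2 range, the highest minus the lowest library on the log2 CPM scale. It ran from 0.46 for FCER1G to 2.34 for F13A1, with a median of 0.89, beside 0.77 over all tested genes. A range of at least 1 was found in 13 of the 38 genes (34.2%), beside 36.1% of all tested genes, which is a share near the background. The same 36.1% is the background for each count of this kind by role or list below, and 12.3% for counts of genes lowest in AMB8. The intervals of the highest and lowest library were apart in 38 of 38 genes, as in 96.9% of all tested genes. Those libraries were picked by their values with no allowance for that choice, and the intervals leave out error in assigning reads to genes. Their separation therefore describes the spread and does not exclude counting error for each gene. The border macrophage genes had the widest ranges of the 7 groups by role, with a median of 1.63. Microglial identity genes followed with 1.16, and the phagocytic genes had the narrowest with 0.64.

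**Figure D2:**
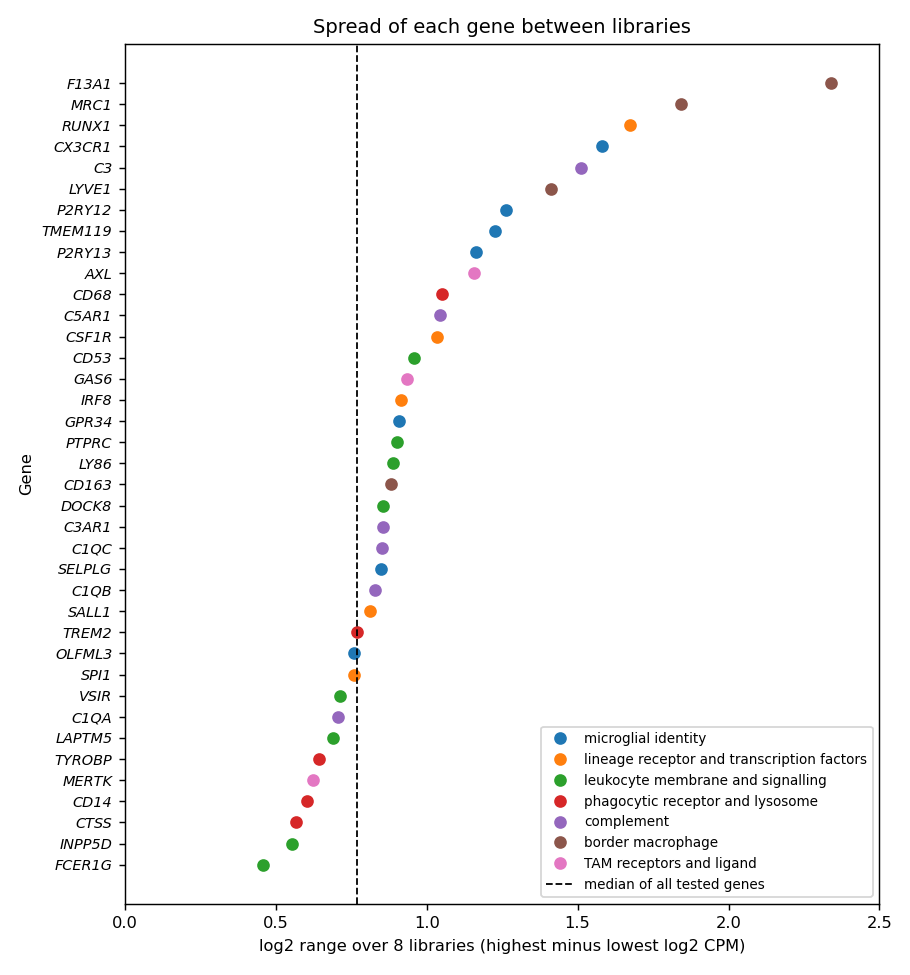
Log2 range over 8 libraries (highest minus lowest log2 CPM, x axis) of each of 38 genes (y axis), coloured by role, with the median of all tested genes (0.77) as a dashed line. F13A1, MRC1 and RUNX1 lie farthest to the right, and FCER1G, INPP5D and CTSS farthest to the left.

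Genes listed here as microglial identity genes were lowest in AMB8 in 5 of 7 cases, beside 12.3% of all tested genes. A log2 range of at least 1 was found in 4 of 7, beside 36.1% of all tested genes. Without AMB8 that count was 1 of 7, P2RY12, with a range of 1.09. CX3CR1, the receptor for the neuronal chemokine fractalkine (chromosome 2, 101414788 to 101431443), was at 26.5 CPM in AMB3, 40.6 in AMB4, 20.9 in AMB5, 34.8 in AMB6, 25.9 in AMB7, 13.6 in AMB8, 27.9 in AMB9 and 28.0 in AMB10. AMB8 stood below the rest, with an interval of 12.7 to 14.5 CPM, and AMB4 stood at the top, with 39.0 to 42.2 CPM. Without AMB8 the log2 range of CX3CR1 fell from 1.58 to 0.95. P2RY12, the receptor by which microglial processes sense nucleotides, was at 31.3 CPM in AMB3, 31.8 in AMB4, 14.9 in AMB5, 31.3 in AMB6, 25.9 in AMB7, 13.2 in AMB8, 23.0 in AMB9 and 29.8 in AMB10. Here AMB5 was low beside AMB8, and the intervals of both (13.8 to 16.1 and 12.4 to 14.1 CPM) overlapped. P2RY13, a related nucleotide receptor, was at 9.99 CPM in AMB3, 11.6 in AMB4, 8.91 in AMB5, 14.3 in AMB6, 10.1 in AMB7, 6.36 in AMB8, 9.28 in AMB9 and 11.5 in AMB10. Its log2 range was 1.16, and 0.68 without AMB8. P2RY12 (140527667 to 140574076) and P2RY13 (140581656 to 140584884) are neighbours on chromosome 2, and both lie within MED12L on the opposite strand. MED12L was at 13.8 to 18.1 CPM, and whether counting used strand is not known.

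TMEM119, a membrane protein used as a microglial marker, was at 4.16 CPM in AMB3, 7.01 in AMB4, 5.78 in AMB5, 7.80 in AMB6, 6.74 in AMB7, 3.31 in AMB8, 4.58 in AMB9 and 6.22 in AMB10. Its lowest interval (2.89 to 3.78 CPM in AMB8) overlapped that of AMB3 (3.56 to 4.84 CPM), and its log2 range was 1.23, or 0.90 without AMB8. SELPLG, the ligand of P-selectin, lies next to it on chromosome 9 (102893980 to 102905949, with TMEM119 at 102859641 to 102871010). SELPLG was at 17.8 CPM in AMB3, 10.1 in AMB4, 12.3 in AMB5, 16.4 in AMB6, 11.1 in AMB7, 12.2 in AMB8, 10.5 in AMB9 and 18.2 in AMB10, so that AMB8 was near its median of 12.3 CPM. GPR34, a receptor for lysophosphatidylserine, ran from 8.27 CPM in AMB9 over a median of 11.9 CPM to 15.5 CPM in AMB7. It lies within CASK, a gene of 124 to 190 CPM on the other strand. Whether counting used strand is not known, so part of the count of GPR34 may be uncertain. OLFML3, a secreted protein enriched in microglia, ran from 10.1 CPM in AMB8 over a median of 13.9 CPM to 17.1 CPM in AMB3. The identity genes therefore did not keep one order of libraries. Relative to CX3CR1, P2RY13 varied 1.65-fold over the libraries, P2RY12 1.66-fold and TMEM119 1.76-fold, while GPR34 varied 3.34-fold and SELPLG 3.64-fold. The ratio to CX3CR1 was lowest in AMB4 and highest in AMB8 for GPR34 and SELPLG, and also for P2RY13, C1QB and CD163. CX3CR1 itself was highest in AMB4 and lowest in AMB8.

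**Figure D3:**
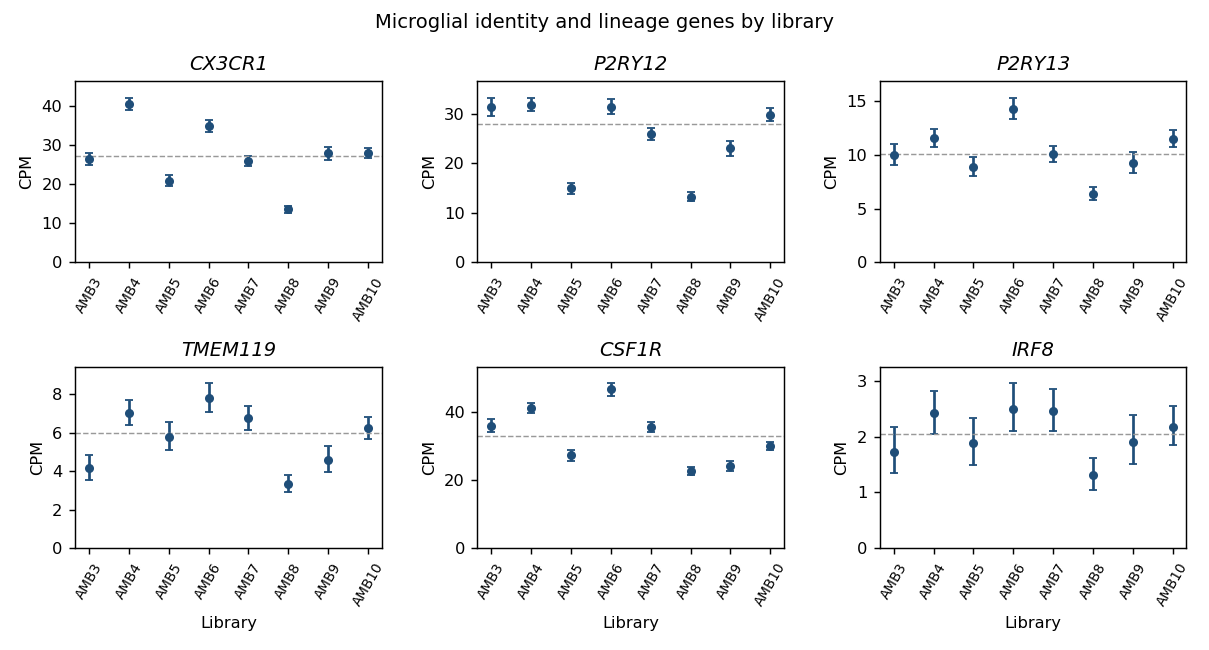
CPM (y axis) of CX3CR1, P2RY12, P2RY13, TMEM119, CSF1R and IRF8 in each of 8 libraries (x axis), with exact 95% Poisson intervals as bars and the median as a dashed line. AMB8 is the lowest point in each of the 6 panels, and P2RY12 is also low in AMB5.

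The score of the 7 identity genes ran from -0.66 in AMB8 to 0.36 in AMB6, a range of 1.01 that fell to 0.58 without AMB8. Levels of CX3CR1 and P2RY12 followed one another over the libraries (Pearson r = 0.88, adjusted p = 0.017; Spearman rho = 0.88, adjusted p = 0.065; exact permutation tests, adjusted over 27 fixed pairs). Without AMB8 and AMB4, the libraries farthest from the median of CX3CR1, r was 0.80. The adjusted p rested on most libraries: of 8 recomputations that each left out 1 library, 2 gave an adjusted p under 0.05 for this pair, without AMB3 and without AMB10. For 2 others (without AMB4 and without AMB9) no pooled r is given, because the remaining values fell into separate clusters.

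CSF1R, the survival receptor of microglia (chromosome 5, 142811024 to 142845548), was at 36.0 CPM in AMB3, 41.3 in AMB4, 27.3 in AMB5, 46.7 in AMB6, 35.7 in AMB7, 22.8 in AMB8, 24.1 in AMB9 and 30.0 in AMB10. AMB8 and AMB9 were lowest with overlapping intervals (21.7 to 24.0 and 22.6 to 25.6 CPM), and AMB6 was highest (44.9 to 48.6 CPM). SPI1, which encodes the myeloid factor PU.1, ran from 1.98 CPM in AMB5 over a median of 2.41 CPM to 3.37 CPM in AMB6. IRF8, a partner of PU.1, ran from 1.31 CPM in AMB8 over a median of 2.04 CPM to 2.51 CPM in AMB6, and its spread of 0.91 on the log2 scale shrank to 0.53 once AMB8 was left out. RUNX1, a factor of blood and early microglial development, was counted 10 to 44 times a library and ran from 0.230 CPM in AMB5 (0.110 to 0.423) to 0.811 CPM in AMB6 (0.589 to 1.09). Its log2 range of 1.67 therefore rests on few counts. SALL1, a factor that maintains microglial identity, is also expressed in other neural cells, and ran from 17.1 CPM in AMB5 over a median of 25.8 CPM to 30.1 CPM in AMB10. Within the lineage genes 2 of 5 had a range of at least 1 (36.1% of all tested genes) and 2 of 5 were lowest in AMB8 (12.3% of all tested genes). The first count was 1 of 5, RUNX1, without AMB8 or without AMB6, where the range of CSF1R was 0.96 and 0.85 in place of 1.03.

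Of the ligands that act on these receptors, IL34 and CSF1, which bind CSF1R, were at 44.1 to 78.8 CPM (lowest in AMB6, highest in AMB5) and at 4.0 to 8.37 CPM (lowest in AMB9, highest in AMB10). Neither passed the test against CSF1R: r was -0.34 for IL34 (adjusted p = 0.55) and 0.38 for CSF1 (adjusted p = 0.55) by the same exact permutation test. CX3CL1, the ligand of CX3CR1, was at 475 CPM in AMB9 to 675 CPM in AMB5, and its r with CX3CR1 was -0.03 (adjusted p = 0.94, exact permutation test). Over the list of 16 ligands and partners read by microglia, 15 were tested and 6 had a log2 range of at least 1, with a median range of 0.92. NRROS, a microglial partner of latent TGF-beta, had the widest range, and it was highest in AMB8 with 14.9 CPM and in AMB10 with 11.6 CPM, against 4.65 to 8.22 CPM in the other libraries. It thus went against the low levels of most identity genes in AMB8.

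The log2 range reached 1 in none of the 8 leukocyte membrane and signalling genes, beside 36.1% of all tested genes. Their median was 0.78, beside 0.77 over all tested genes. LAPTM5, a lysosomal membrane protein of blood-derived cells, ran from 19.9 CPM in AMB5 over a median of 27.4 CPM to 32.2 CPM in AMB6. PTPRC, which encodes CD45, ran from 0.896 CPM in AMB8 to 1.70 CPM in AMB10, and CD53, a tetraspanin, from 3.55 CPM in AMB7 to 6.93 CPM in AMB6. Both are shared by leukocytes in general. INPP5D, the inositol phosphatase SHIP1, ran from 14.7 CPM in AMB7 to 21.6 CPM in AMB6. DOCK8, an exchange factor for small GTPases, ran from 1.97 CPM in AMB8 to 3.59 CPM in AMB6. VSIR, an immune checkpoint receptor, ran from 19.97 CPM in AMB9 to 32.8 CPM in AMB10. FCER1G, the shared signalling chain of Fc receptors, had the narrowest range of all, from 5.15 CPM in AMB8 to 7.09 CPM in AMB5. LY86, a partner of an innate immune receptor, ran from 2.52 CPM in AMB8 to 4.70 CPM in AMB10, and leaving out AMB8 took its log2 range from 0.89 to 0.59. CX3CR1 and PTPRC had r = 0.71, which did not pass after adjustment (adjusted p = 0.11, exact permutation test).

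None of the 5 phagocytic and lysosomal genes was lowest in AMB8, beside 12.3% of all tested genes, a share at which 5 genes may well give none. AMB8 was lowest or second lowest for 3 of the 5, beside 4332 of the 16874 tested genes, and only TYROBP was above its own median there. A log2 range of at least 1 was found in 1 of 5, beside 36.1% of all tested genes. TREM2, a receptor for lipids and cell debris, was at 5.05 CPM in AMB3, 6.15 in AMB4, 4.56 in AMB5, 5.27 in AMB6, 3.76 in AMB7, 3.67 in AMB8, 3.60 in AMB9 and 3.87 in AMB10. Its signalling adaptor TYROBP was at 5.12 CPM in AMB3, 4.73 in AMB4, 4.46 in AMB5, 4.94 in AMB6, 4.28 in AMB7, 5.43 in AMB8, 3.47 in AMB9 and 4.87 in AMB10. AMB8 was thus among the 2 lowest libraries for TREM2 and the highest for TYROBP, and the ratio of TYROBP to TREM2 varied 1.92-fold, from AMB4 to AMB8. Their r was 0.34 (adjusted p = 0.55, exact permutation test). The range of TYROBP, 0.64, fell to 0.34 without AMB9. CD68, a lysosomal protein of macrophages, ran from 1.26 CPM in AMB9 to 2.64 CPM in AMB4 and AMB6, and it was the 1 gene with a range of at least 1 (1.05, or 0.75 without AMB9). CTSS, a lysosomal protease, ran from 4.53 CPM in AMB5 to 6.73 CPM in AMB6. CD14, a co-receptor for bacterial lipopolysaccharide, ran from 3.76 CPM in AMB4 to 5.73 CPM in AMB6, and its range of 0.60 fell to 0.29 without AMB6. In a further list of 21 genes of activated and phagocytic microglia, 16 were tested and 7 had a range of at least 1, with a median of 0.84. CTSB, a lysosomal protease found in many cell types, was at 355 to 625 CPM and LAMP1, a lysosomal membrane protein, at 113 to 148 CPM. FABP5, a fatty acid carrier, had a range of 4.30 that fell to 0.86 without AMB4, where it was at 1.23 CPM, against 13.7 to 24.9 CPM in the other libraries.

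The 3 genes of C1q moved together. C1QA (20831348 to 20834460), C1QC (20838448 to 20842949) and C1QB (20847781 to 20856468) stand side by side on chromosome 1 on the forward strand, and each encodes a chain of the C1q protein. C1QB was at 22.4 CPM in AMB3, 19.7 in AMB4, 20.1 in AMB5, 24.4 in AMB6, 21.9 in AMB7, 13.7 in AMB8, 16.8 in AMB9 and 19.0 in AMB10. C1QC was at 15.6 CPM in AMB3, 15.2 in AMB4, 14.2 in AMB5, 17.7 in AMB6, 17.4 in AMB7, 9.79 in AMB8, 12.3 in AMB9 and 14.7 in AMB10. C1QA was at 13.3 CPM in AMB3, 12.6 in AMB4, 12.01 in AMB5, 16.6 in AMB6, 15.0 in AMB7, 10.1 in AMB8, 10.5 in AMB9 and 11.3 in AMB10. In each of the 3 genes AMB8 was lowest and AMB6 highest. The ratio of C1QC to C1QB varied 1.14-fold over the libraries and that of C1QA to C1QB 1.24-fold. C1QB and C1QC had r = 0.97 (adjusted p = 0.015; rho = 0.90, adjusted p = 0.062; exact permutation tests), and r was 0.88 without AMB8 and AMB6. For C1QA and C1QB r was 0.90 (adjusted p = 0.017) and rho 0.95 (adjusted p = 0.031, exact permutation tests), and r was 0.93 without AMB6 and AMB7. Leaving out 1 library at a time, the adjusted p of r stayed under 0.05 in 6 of 8 cases for C1QB and C1QC (not without AMB6 or AMB8) and in 5 of 8 for C1QA and C1QB (not without AMB4, AMB6 or AMB7). Without AMB8 the range of C1QB fell from 0.83 to 0.53 and that of C1QC from 0.85 to 0.52.

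**Figure D4:**
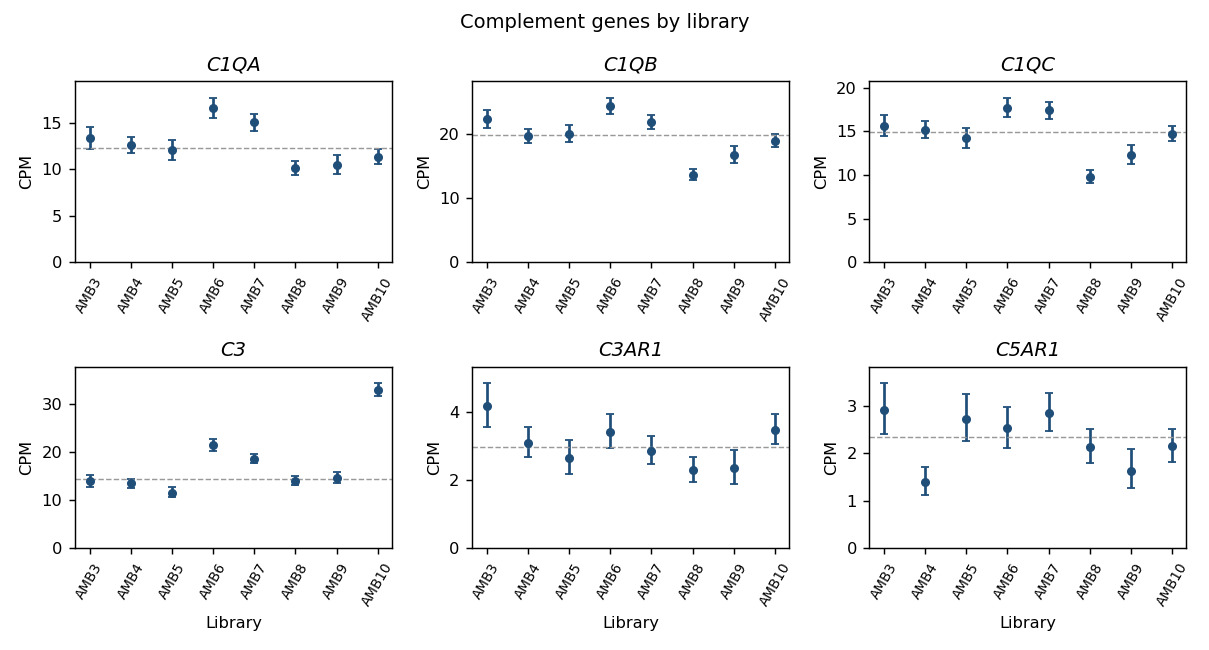
CPM (y axis) of C1QA, C1QB, C1QC, C3, C3AR1 and C5AR1 in each of 8 libraries (x axis), with exact 95% Poisson intervals as bars and the median as a dashed line. The C1q genes share a low point in AMB8 and a high point in AMB6, while C3 is highest in AMB10 at 32.9 CPM.

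C3, the protein on which the complement pathways converge (chromosome 20, 44865758 to 44906068), had another lowest and another highest library than the C1q genes. It was at 13.9 CPM in AMB3, 13.4 in AMB4, 11.5 in AMB5, 21.3 in AMB6, 18.6 in AMB7, 14.0 in AMB8, 14.6 in AMB9 and 32.9 in AMB10. The interval of AMB10 (31.6 to 34.3 CPM) lay above that of AMB6, the next highest (20.1 to 22.6 CPM). Leaving out AMB10 took its log2 range from 1.51 to 0.89. After AMB10, C3 was highest in AMB6 and AMB7, which were also the highest libraries for C1QA and C1QC. The ratio of C3 to C1QB varied 3.03-fold, from AMB5 to AMB10, and their r was 0.21 (adjusted p = 0.71, exact permutation test). With 8 libraries this test cannot show that a link is absent, and C3 was not tested against C1QA or C1QC. AMB10 also had the highest score of 7 astrocyte genes (0.59), a cell type that can express C3, and of 7 myelin genes (1.90). Their part in the level of C3 was not tested. C3AR1, the receptor for the fragment C3a, was at 4.16 CPM in AMB3, 3.09 in AMB4, 2.65 in AMB5, 3.41 in AMB6, 2.85 in AMB7, 2.28 in AMB8, 2.34 in AMB9 and 3.46 in AMB10. C5AR1, the receptor for C5a, was at 2.90 CPM in AMB3, 1.39 in AMB4, 2.72 in AMB5, 2.53 in AMB6, 2.85 in AMB7, 2.13 in AMB8, 1.63 in AMB9 and 2.15 in AMB10. The lowest library of each, AMB8 for C3AR1 and AMB4 for C5AR1, had an interval that overlapped that of AMB9, the next lowest for both. The log2 range of C5AR1 was 1.04, or 0.82 without AMB4.

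Of 21 other components of the cascade, 15 had a row and 6 were tested, and all 6 had a log2 range of at least 1, with a median of 2.06. C1S, a protease that works with C1q, ran from 4.95 CPM in AMB10 and 5.51 CPM in AMB8 to 17.9 CPM in AMB6. Its r with C1QB was 0.74, which did not pass after adjustment (adjusted p = 0.11, exact permutation test). MASP1, a protease of the lectin pathway, ran from 21.2 CPM in AMB7 to 54.5 CPM in AMB5, and its range of 1.36 fell to 0.67 without AMB5. C7, a part of the membrane attack complex, ran from 0.448 CPM in AMB8 to 4.31 CPM in AMB3. MBL2 and FCN1, recognition proteins of the lectin pathway, were at 0 counts in every library. Of 21 regulators and receptors of complement, 15 were tested and 8 had a range of at least 1, with a median of 1.16. CSMD1 and CSMD2, neural membrane proteins with complement control domains, were at 60.2 to 107 CPM and at 33.1 CPM (AMB10) to 126 CPM (AMB7). The subunits of the microglial receptor for C3 fragments, named here after their values were seen, ran from 1.67 CPM in AMB8 to 4.37 CPM in AMB6 for ITGAM and from 2.44 CPM in AMB9 to 7.01 CPM in AMB6 for ITGB2.

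Border macrophage genes spread most, and 3 of 4 had a log2 range of at least 1, beside 36.1% of all tested genes. F13A1, the A chain of clotting factor XIII (chromosome 6, 6035229 to 6468818), was at 2.51 CPM in AMB3, 4.89 in AMB4, 5.89 in AMB5, 1.35 in AMB6, 5.18 in AMB7, 1.13 in AMB8, 2.11 in AMB9 and 2.58 in AMB10. The intervals of AMB5, AMB7 and AMB4 overlapped at the top, as did those of AMB8 and AMB6 at the bottom, and the highest library was 5.19-fold above the lowest. MRC1, the mannose receptor CD206, was at 3.81 CPM in AMB3, 2.05 in AMB4, 1.98 in AMB5, 2.69 in AMB6, 4.80 in AMB7, 1.31 in AMB8, 2.14 in AMB9 and 2.30 in AMB10. AMB7 and AMB3 were high, with overlapping intervals (4.30 to 5.33 and 3.24 to 4.46 CPM). LYVE1, a hyaluronan receptor of perivascular macrophages and lymphatic endothelium, was at 10.1 CPM in AMB3, 8.81 in AMB4, 8.58 in AMB5, 6.29 in AMB6, 11.7 in AMB7, 4.36 in AMB8, 8.50 in AMB9 and 5.60 in AMB10. CD163, the receptor that clears haemoglobin bound to haptoglobin, was at 5.27 CPM in AMB3, 3.17 in AMB4, 3.36 in AMB5, 3.17 in AMB6, 5.37 in AMB7, 4.93 in AMB8, 3.75 in AMB9 and 5.88 in AMB10. MRC1, LYVE1 and F13A1 were lowest in AMB8, whereas CD163 was above its median there.

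**Figure D5:**
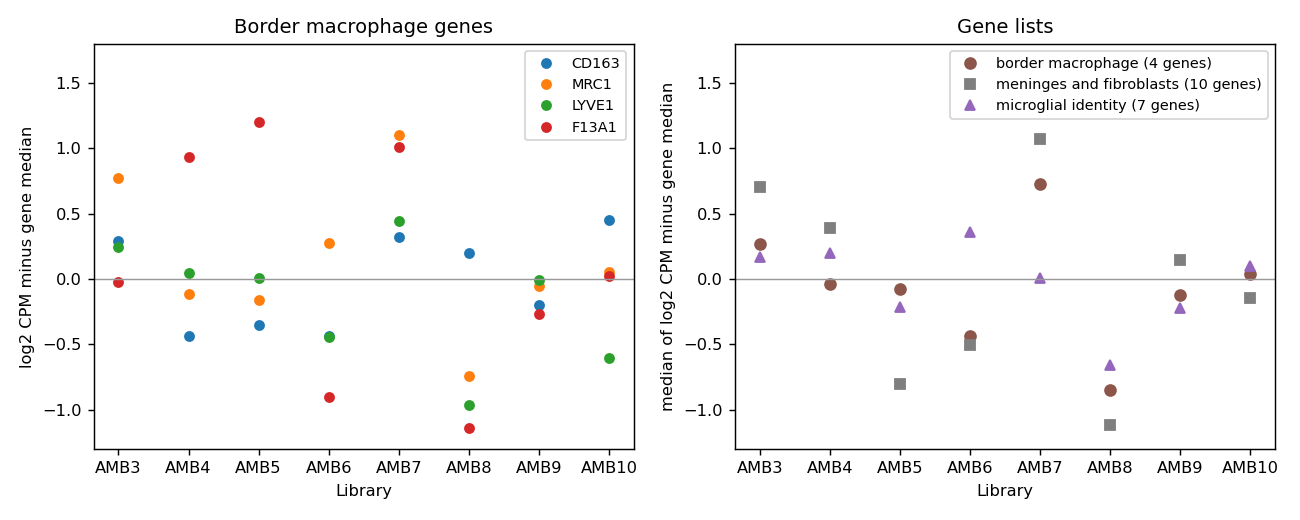
Left, log2 CPM minus the gene median (y axis) of CD163, MRC1, LYVE1 and F13A1 in each of 8 libraries (x axis); right, the median of this value over 4 border macrophage, 10 meningeal and fibroblast and 7 microglial identity genes. Border macrophage and meningeal scores are both highest in AMB7 and lowest in AMB8, and they part in AMB5.

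The score of the 4 genes ran from -0.85 in AMB8 and -0.44 in AMB6 to 0.73 in AMB7. AMB6 was therefore below 0 on this score while it had the highest microglial identity score. Relative to CX3CR1, LYVE1 varied 2.49-fold over the libraries, MRC1 3.67-fold, CD163 4.65-fold and F13A1 7.29-fold. Of the 6 possible pairs of these genes 3 were tested, each with MRC1, and none passed after adjustment: r was 0.75 for LYVE1 and MRC1 (adjusted p = 0.11), 0.36 for F13A1 and MRC1 (adjusted p = 0.55) and 0.32 for CD163 and MRC1 (adjusted p = 0.55, exact permutation tests). The summed level of 10 meningeal and fibroblast genes ran from 262 CPM in AMB5 to 846 CPM in AMB7, 10 of 10 listed genes were tested, and none was at 0. COL1A2, a fibroblast collagen, was at 106 CPM in AMB3, 135 in AMB4, 21.2 in AMB5, 26.0 in AMB6, 152 in AMB7, 23.3 in AMB8, 72.7 in AMB9 and 58.2 in AMB10. The r of COL1A2 with LYVE1 was 0.69 (adjusted p = 0.17) and with MRC1 0.63 (adjusted p = 0.20, exact permutation tests). The part of meningeal tissue in the spread of the border macrophage genes was not tested further.

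Of 13 other border macrophage genes, 8 were tested and 7 had a log2 range of at least 1, with a median of 1.21. STAB1, a scavenger receptor, ran from 15.4 CPM in AMB9 to 33.5 CPM in AMB7, and DAB2, an endocytic adaptor, from 27.3 CPM in AMB5 to 36.1 CPM in AMB7. CLEC10A, a lectin of macrophages and dendritic cells, ran from 0.763 CPM in AMB3 to 4.24 CPM in AMB6. CD209, a further lectin of these cells, was at 0 counts in every library. Beyond the 7 identity genes, 27 genes of a list of 31 other microglia genes were tested. Of the 27, 20 had a range of at least 1, with a median of 1.29, and 10 were lowest in AMB8. SLCO2B1, an organic anion transporter, ran from 25.0 CPM in AMB9 to 34.1 CPM in AMB3. HCLS1, a signalling protein of blood cells, ran from 0.541 CPM in AMB3 to 2.97 CPM in AMB7.

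The TAM receptors MERTK and AXL and their ligand GAS6 drive the uptake of dying cells, and astrocytes use them as well as macrophages. MERTK was at 14.6 CPM in AMB3, 12.8 in AMB4, 9.46 in AMB5, 14.2 in AMB6, 9.75 in AMB7, 12.7 in AMB8, 10.4 in AMB9 and 14.4 in AMB10. AXL was at 9.35 CPM in AMB3, 9.70 in AMB4, 7.18 in AMB5, 8.66 in AMB6, 5.53 in AMB7, 9.32 in AMB8, 6.61 in AMB9 and 12.4 in AMB10. AXL shares 1801 bases with HNRNPUL1 on the same strand, a gene of 178 to 211 CPM, so part of its count may be uncertain. AMB5, AMB7 and AMB9 were the 3 lowest libraries for both receptors. GAS6 was at 29.4 CPM in AMB3, 33.9 in AMB4, 42.3 in AMB5, 36.4 in AMB6, 31.4 in AMB7, 24.3 in AMB8, 31.2 in AMB9 and 46.5 in AMB10, so that AMB5 was high for the ligand and low for the receptors. The score of the 3 genes ran from -0.39 in AMB7 to 0.46 in AMB10, a range of 0.84 that fell to 0.54 without AMB10. AXL alone had a log2 range of at least 1 (1.16, or 0.90 without AMB7 and 0.81 without AMB10).

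AXL and MERTK had r = 0.85 (adjusted p = 0.048; rho = 0.76, adjusted p = 0.17; exact permutation tests), and r was 0.82 without AMB7 and AMB10. This call did not hold in any of the 8 recomputations without 1 library, where the adjusted p lay between 0.066 and 0.17 (no pooled r without AMB9) and r between 0.80 and 0.88, nor with DESeq2 size factors (0.051) or total counts (0.071). MERTK followed GFAP, the intermediate filament of astrocytes, with r = 0.88 (adjusted p = 0.038; rho = 0.74, adjusted p = 0.17; exact permutation tests) and 0.73 without AMB5 and AMB7. The call for MERTK and GFAP held in 1 of the 8 recomputations, without AMB3, and there was no pooled r without AMB9. GFAP ran from 551 CPM in AMB7 to 1609.8 CPM in AMB10. CX3CR1 and GFAP had r = 0.21 (adjusted p = 0.71, exact permutation test). GAS6 and AXL had r = 0.25 (adjusted p = 0.68, exact permutation test). Of the 27 pairs, 5 passed an adjusted p of 0.05 by Pearson's r and 1 by Spearman's rho, and 9 had an unadjusted p under 0.05 by r. CX3CR1 was also set against CSF1R (r = 0.77, adjusted p = 0.083), C1QB (r = 0.68, adjusted p = 0.17) and MRC1 (r = 0.42, adjusted p = 0.55), and none of these passed in the exact permutation tests.

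Other cell types were covered by lists of their markers, with the same threshold of a log2 range of at least 1. It was reached by 9 of 10 tested meningeal and fibroblast genes, 7 of 7 myelin genes, 5 of 7 hippocampal neuron genes, 4 of 7 astrocyte genes (2 without AMB10) and 1 of 8 endothelial genes (0 without AMB5). Among blood cells it was reached by 5 of 5 tested monocyte and neutrophil genes, 2 of 3 lymphocyte genes (1 without AMB9 or AMB10) and 3 of 3 red cell genes. CX3CR1 did not pass the test against MBP of myelin (r = 0.19, adjusted p = 0.72) or PECAM1 of endothelium (r = 0.34, adjusted p = 0.55, exact permutation tests). CD163, the haemoglobin scavenger, had r = -0.36 with the fetal globin gene HBG2 (adjusted p = 0.55, exact permutation test). HBG2 ran from 22.4 CPM in AMB8 to 114 CPM in AMB9, and close copies of this gene make its count uncertain.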

How the data were processed

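Total RNA of fetal hippocampus was sequenced in 8 strand-specific libraries, per the labels' protocols. The authors deposited raw values, 1 per RefSeq gene and library, which are estimated counts (per the file headers and the values): of those above 0, 22.5% to 26.7% were whole (tolerance 0.001). The authors' normalized values are on a log2 scale, per the file headers and the values, and served as an alternative. The submitters' processing notes name DESeq and give no version. Not given in the sources used here are the aligner, the counter, the genome build and whether counting used strand. This matters for 8 of the 38 genes, which overlap another gene of at least 10 counts. They are AXL, CD68, GPR34, INPP5D, LY86, P2RY12, P2RY13 and VSIR. LY86 overlaps a noncoding RNA gene on the other strand (LOC103883434) that was at 0.517 to 2.73 CPM. All 38 gene identifiers and start positions matched RefSeq on Panubis1.0, whose coordinates are given.

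Counts were rounded. Genes were kept by edgeR 4.0.16 (R 4.3.3) with filterByExpr at a minimum count of 10, TMM factors (trimmed mean of M-values) scaled each library size, and log2 CPM used a prior count of 2. The 39 genes, the lists and the 27 pairs were chosen with earlier results of these data known. Every gene of the 39 with a row is named, and of each further list the 2 of highest median CPM, the 1 of widest range and those in a pair could be named. 1 further gene that the rule would name is not reported here, but the counts of its list include it. Pairs were tested over all 40320 pairings of the 8 libraries, 2-sided, with Benjamini-Hochberg adjustment, in scipy 1.17.1. The p-values take the 8 libraries as independent and interchangeable, which the labels do not show. Values were taken to fall into separate clusters, and r was withheld, where a gap of over 0.5 of a gene's range had 2 or more libraries on both sides. Alternatives were DESeq2 1.42.0 size factors, total counts, a prior count of 0.5, no low-count filter, the mean in place of the median, the authors' log2 values and leaving out each library. Scripts were tested on simulated data. Transcript lengths were not used, so levels are not compared between genes. Depth was 40404878 to 71648654 counts a library, and intervals cover counting error only.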

Additional observations from a re-analysis of the deposited data

How the results depend on the processing

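The count of genes with a log2 range of at least 1 was 13 under each scaling, prior count and filter tried, and 9 to 13 when 1 library was left out, lowest without AMB8. Intervals of the highest and lowest library were apart in 36 to 38 genes when 1 library was left out. The range of the score of the 38 genes lay between 0.60 (mean over genes) and 0.67 (total counts), and between 0.45 and 0.64 when 1 library was left out. The count of genes lowest in AMB8, 19, was 19 with DESeq2 size factors, 19 with the authors' log2 values and 17 with total counts; these alternatives, and the counts by role and list without each library, were chosen after seeing the data. The 5 pairs past the adjusted p became 4 with DESeq2 size factors, 5 with a prior count of 0.5 and 3 with total counts, where CX3CR1 and P2RY12 had no pooled r. When 1 library was left out they numbered 0 (without AMB6) to 4, where fewer libraries leave fewer pairings. Without 1 library the range of 9 genes shrank by over 1.5 times: CX3CR1, P2RY13, IRF8, LY86, C1QB and C1QC without AMB8, TYROBP without AMB9, CD14 without AMB6 and C3 without AMB10. Other scalings moved the median of all genes by at most 0.066 in any library. No paired analysis was possible because the labels give no groups. Genes with few counts, such as RUNX1 with 10 to 44, are limited by depth.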

Other observations

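Genes of antigen presentation were not among the 39. Of a list of 5, 4 were tested and 2 had a log2 range of at least 1 (1 without AMB9 or AMB10). The score of the list was near 0 in AMB8, lowest in AMB9 (-0.33) and highest in AMB10 (0.44). The genes named here were chosen after their values were seen. CD74, the invariant chain of class II molecules, was at 6.69 CPM in AMB3, 1.02 in AMB4, 0.898 in AMB5, 1.57 in AMB6, 1.52 in AMB7, 14.4 in AMB8, 1.28 in AMB9 and 9.31 in AMB10. It was thus highest in AMB8, where most microglial identity genes were lowest. The class II DM beta chain (LOC101016766), which loads peptides, was at 15.0 CPM in AMB3, 13.7 in AMB4, 11.5 in AMB5, 2.95 in AMB6, 3.72 in AMB7, 63.6 in AMB8, 6.16 in AMB9 and 43.0 in AMB10. AMB8 and AMB10 were the 2 highest libraries for CD74 and for this chain. The DM alpha chain (LOC103883612) had another order: it was highest in AMB3 with 2.81 CPM, at 2.42 CPM in AMB8 and 2.30 CPM in AMB10, and lowest in AMB7 with 0.839 CPM. The class II DP alpha 1 chain (LOC101018895), which did not pass the low-count filter, was at 4.996 CPM in AMB10, 1.69 CPM in AMB8, 1.45 CPM in AMB3 and 0.126 to 0.387 CPM elsewhere. The DP beta 1 chain (LOC101018551), also below the filter, reached 2.46 CPM in AMB10. Its interval in AMB8 (0.503 to 0.916 CPM) overlapped that in AMB3 (0.320 to 0.790 CPM). Genes of this family have close copies, so their counts may be uncertain. CIITA, the transactivator of class II genes, did not pass the filter either and had at most 17 counts. It was highest in AMB10 with 0.237 CPM. AMB8, with 0.119 CPM, lay below AMB4 (0.203 CPM) and AMB3 (0.197 CPM). HAVCR2, the receptor TIM-3 of microglia and T cells, was highest in AMB8 with 4.39 CPM and lowest in AMB9 with 1.01 CPM. The interval of AMB8 (3.90 to 4.92 CPM) overlapped those of AMB10 (3.59 to 4.54 CPM) and AMB3 (3.22 to 4.44 CPM). CD5L, a secreted protein of tissue macrophages, was counted 322 times in AMB10 and 67 times in AMB8, and at most 14 times in the other libraries, with 0 counts in AMB5 and AMB6. It did not pass the low-count filter. The transcription factor MAF went the other way: AMB8 was lowest with 5.66 CPM, AMB10 next with 9.29 CPM, and AMB7 highest with 24.7 CPM. MS4A7, also below the filter, had 79 counts in AMB7 but 17 in AMB8, 16 in AMB10 and 2 in AMB9. The score of the other border macrophage genes was lowest in AMB8 (-0.32), and it was 0.01 in AMB10. AMB8 and AMB10 are also the libraries of highest FIBCD1, and its part in these values was not tested.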
